A study of Homo sapiens with 6 samples.

Results

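The genes described here were 40 transcripts connected with the response to low oxygen, 18 classical targets of the hypoxia-inducible factors (HIFs) and 22 genes that carry glucose through glycolysis. They were taken by gene symbol from a list and not by a cut on measured values, but the list was chosen with earlier results of these data known. All 40 were found, each in 1 row, among the 24462 gene symbols of the count tables. RNA-seq was performed on PC3, a human prostate cancer line first grown from a tumour that had spread to bone, in 3 cultures transfected with a control siRNA (Control) and 3 transfected with an siRNA against CITED2 (si-CITED2). Both groups carried siRNA at 80 nM and were sampled 72 h after transfection, and the labels name no low-oxygen treatment for either. RNA was extracted with Trizol and libraries were made with a SMARTer mRNA-seq kit. A single cell line and a single siRNA label were compared, so what the siRNA does in other cells or off its target was not measured.

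HIFs are pairs of an oxygen-sensitive alpha subunit (HIF1A or EPAS1) and the stable subunit ARNT. In the presence of oxygen, prolyl hydroxylases of the EGLN family mark the alpha subunit for binding by VHL, which leads to its destruction, and when oxygen is short the pair accumulates, recruits the coactivators EP300 and CREBBP and switches on genes for glucose uptake, glycolysis, acid export, mitophagy and blood vessel growth. CITED2 binds the same region of EP300 and CREBBP as the HIF alpha subunit and is known to restrain HIF in this way. It is itself a HIF target. Many tumour lines run glycolysis at a high rate even with oxygen present.

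The total was between 19508925 and 28936374 counts per library, and a count of 3, taken as the floor of detection, corresponded to between 0.104 and 0.154 CPM, the usual scaling of a count by the library total. Values are given as normalised read counts, meaning counts scaled by library size with a TMM factor and brought back to the average library, in the order of replicates 1, 2 and 3. A gene is called higher or lower where the quasi-likelihood test of edgeR, adjusted over the 16314 genes in the fit by the Benjamini-Hochberg method, gave an adjusted p under 0.05. The defining markers of the cell line were checked. The 4 epithelial markers summed to between 38907 and 42153 normalised counts in Control and between 43512 and 47940 in the libraries labelled si-CITED2, with KRT8 (log2 fold change 0.24) and KRT18 (0.18) higher and EPCAM (-0.33) lower. Of the luminal androgen receptor markers, KLK2 was at 0 in every library. None of 6 blood and endothelial markers reached the fit or exceeded 11 counts in any library. The part of these marker shifts in the results was not tested.

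The targeted transcript was not lower. CITED2 mRNA stood at 859, 892 and 773 in Control and 1084, 921 and 984 in the libraries labelled si-CITED2, 841 ± 61.4 against 996 ± 82.4 (mean ± SD, n = 3 each), without overlap (log2 fold change 0.24, SE 0.07, edgeR adjusted p = 0.0363). The call was lost without Control replicate 1 (edgeR adjusted p = 0.0536) or 3 (0.141), and without si-CITED2 replicate 1 (0.154) or 3 (0.0846). The counts therefore do not show the knockdown in the mRNA, the study judged it by immunoblot, and every direction given here is that of the libraries labelled si-CITED2 relative to Control.

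The stretches of DNA upstream of 5 members are shown because these genes hold the core letters of the hypoxia response element and moved in opposite directions. Each is the 250 bases before the RefSeq start site (GRCh38.p14), written 5′ to 3′ on the strand of the gene, with ACGTG and its reverse complement CACGT in capitals. The palindrome CACGTG holds both, overlapping, and is also the E-box read by basic helix-loop-helix factors, the family to which BHLHE40 belongs. The windows lie at chr3:4979187-4979436, plus strand (BHLHE40), chr11:18394313-18394562, plus strand (LDHA), chr1:231422288-231422537, minus strand (EGLN1), chr2:74833877-74834126, plus strand (HK2) and chr12:6914330-6914579, plus strand (ENO2).
BHLHE40: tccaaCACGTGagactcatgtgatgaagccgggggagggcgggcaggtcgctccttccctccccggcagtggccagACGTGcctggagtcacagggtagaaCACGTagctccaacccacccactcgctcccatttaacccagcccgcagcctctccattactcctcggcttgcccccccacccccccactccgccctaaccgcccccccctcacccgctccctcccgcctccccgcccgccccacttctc
LDHA: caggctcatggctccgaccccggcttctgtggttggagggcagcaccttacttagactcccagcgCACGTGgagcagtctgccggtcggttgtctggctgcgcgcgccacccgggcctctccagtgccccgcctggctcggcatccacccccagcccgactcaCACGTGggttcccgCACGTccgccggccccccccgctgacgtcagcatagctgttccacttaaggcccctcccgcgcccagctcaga
EGLN1: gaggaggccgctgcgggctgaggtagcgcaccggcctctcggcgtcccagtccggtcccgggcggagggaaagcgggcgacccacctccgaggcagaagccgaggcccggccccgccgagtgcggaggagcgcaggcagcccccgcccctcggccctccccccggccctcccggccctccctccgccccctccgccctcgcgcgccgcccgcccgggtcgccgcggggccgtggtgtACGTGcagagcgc
HK2: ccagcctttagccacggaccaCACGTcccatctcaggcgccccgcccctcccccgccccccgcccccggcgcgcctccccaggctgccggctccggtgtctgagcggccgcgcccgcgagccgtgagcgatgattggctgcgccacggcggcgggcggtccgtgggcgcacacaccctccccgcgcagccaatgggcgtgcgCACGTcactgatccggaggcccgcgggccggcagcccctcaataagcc
ENO2: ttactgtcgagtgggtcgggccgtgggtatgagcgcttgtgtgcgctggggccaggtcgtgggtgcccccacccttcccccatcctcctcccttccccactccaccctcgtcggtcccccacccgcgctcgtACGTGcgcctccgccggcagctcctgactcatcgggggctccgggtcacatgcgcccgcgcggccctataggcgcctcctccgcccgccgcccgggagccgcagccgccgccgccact

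ACGTG was read 4 times in the window of BHLHE40 and 5 times in that of LDHA, counting each strand. The window of HK2 held 2 matches, at 229 and 48 bases before the start, and those of EGLN1 and ENO2 held 1 each, at 13 and 118 bases. BHLHE40, LDHA and EGLN1 were higher and HK2 and ENO2 were lower, as they were chosen to be. A window was at hand for 37 of the 40 members (not for NDRG1, BNIP3L and SLC2A3). It held ACGTG on either strand in 16 of 37 (43.2%), beside 18.7% of all 27305 windows of this length. By call, it was present in 5 of 9 members that were higher, 3 of 5 that were lower and 7 of 22 that were not called, and also in CA9, which was not fitted. With GCGTG counted as well, CACGC on the other strand and able to share end bases with an ACGTG match, 24 of 37 member windows (64.9%) and 43.1% of all windows held a match. A match is a description of the letters and not of binding.

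Of the 40 members, 39 entered the fit and 15 were called, 10 higher and 5 lower in the libraries labelled si-CITED2. That is 38.5% of the members fitted, where 17.4% of all genes in the fit were called in either direction, 9.36% higher and 8.09% lower. Among the 12051 genes that averaged at least 100 normalised counts, a level chosen after the values were seen, 21.6% were called and 15 of 35 members (42.9%). The normalised counts of the groups did not overlap for 26 members, where they did not overlap for 32.5% of all genes. In these bulk RNA samples, a change in the share of cells that express a gene and a change in RNA per cell cannot be told apart. The median log2 fold change was 0.07 over the members (0.04 without Control replicate 3) and -0.001 over all genes, and 23 members lay above 0 and 16 below. Of the hypoxia targets, 6 of 17 were higher and 1 was lower, with a median of 0.12, and of the glycolysis genes 4 of 22 were higher and 4 lower, with a median of -0.02. The difference between these medians was not tested.

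**Figure D1:**
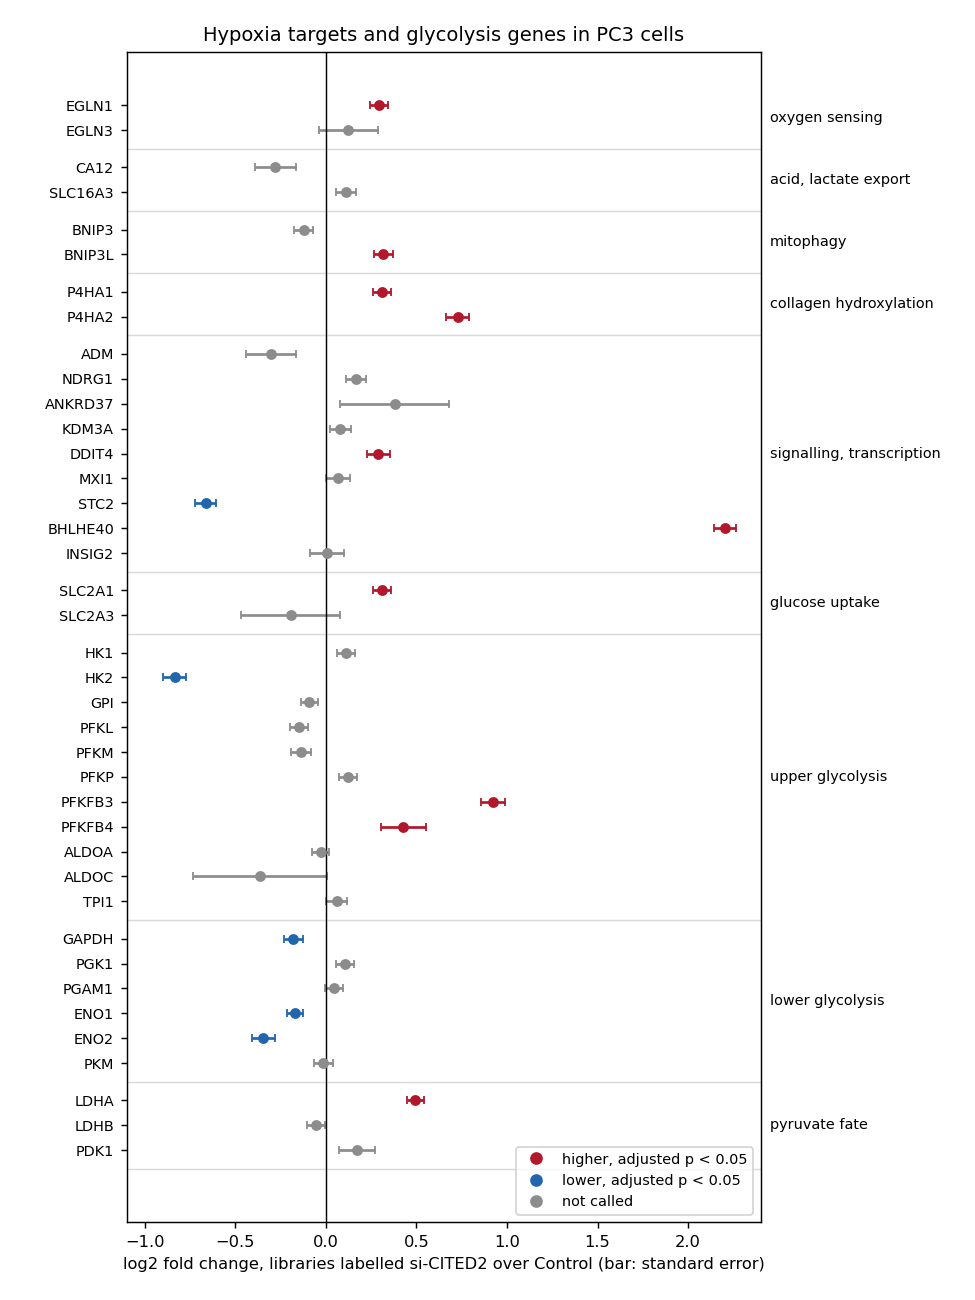
Log2 fold change of each fitted member between the libraries labelled si-CITED2 and Control (horizontal axis, log2 units), ordered by role, with the standard error as a bar (n = 3 per label); red and blue points passed the adjusted p. BHLHE40 at 2.20 stands apart on the right, HK2 at -0.84 and STC2 at -0.66 lie farthest to the left, and most points are within 0.5 of 0.

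The oxygen sensors are themselves HIF targets, which makes them a feedback on the pathway. EGLN1, the main HIF prolyl hydroxylase, was higher and its groups did not overlap, with 2755, 2864 and 2823 in Control and 3586, 3377 and 3399.7 in the libraries labelled si-CITED2 (log2 fold change 0.30, SE 0.05, edgeR adjusted p = 4.01e-04). EGLN3, an isoform with the same activity, was far lower in level and its groups overlapped, with 102, 90.2 and 83.5 in Control and 115, 86.9 and 101 in the libraries labelled si-CITED2 (log2 fold change 0.12, SE 0.16, edgeR adjusted p = 0.682). Per kilobase of exon the Control level was 16.8 ± 0.328 CPM for EGLN1 and 0.801 ± 0.0825 CPM for EGLN3.

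Of the 3 members for acid and lactate export, CA12 and SLC16A3 were fitted and neither was called. CA9, the cell surface carbonic anhydrase widely used as a hypoxia marker, was at or near 0, with a single count in Control replicate 3 and in si-CITED2 replicate 2 and none in the other libraries, all under the floor of 3 counts, so no fold change was given. The related carbonic anhydrase CA12 was read at 282, 294 and 269 in Control and 200.4, 257 and 238 in the libraries labelled si-CITED2, without overlap and lower in mean (log2 fold change -0.28, SE 0.11, edgeR adjusted p = 0.101). SLC16A3, the lactate exporter MCT4, was at 1794, 1663 and 1827 in Control and 1939, 1885 and 1871 in the libraries labelled si-CITED2 (log2 fold change 0.11, SE 0.06, edgeR adjusted p = 0.206), also without overlap.

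BNIP3 and BNIP3L encode related receptors on the mitochondrial surface through which mitochondria are handed to autophagy. BNIP3L was higher, with 2569, 2614 and 2497 in Control and 3368, 3048 and 3159.7 in the libraries labelled si-CITED2 (log2 fold change 0.32, SE 0.05, edgeR adjusted p = 3.82e-04). BNIP3 was not, with 4224, 3985 and 3766 in Control and 3515, 3671 and 3809 in the libraries labelled si-CITED2, overlapping and with the opposite sign (log2 fold change -0.12, SE 0.05, edgeR adjusted p = 0.137).

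P4HA1 and P4HA2, alternative alpha subunits of collagen prolyl 4-hydroxylase, were both higher. The enzyme hydroxylates proline in newly made collagen, a step needed for a stable triple helix. P4HA2 rose 1.66-fold, with 1314, 1357 and 1346 against 2008, 2258 and 2387 normalised counts (log2 fold change 0.73, SE 0.06, edgeR adjusted p = 3.47e-07). P4HA1, the more abundant of the pair, rose 1.24-fold, with 3120.5, 3187 and 2989.8 against 3792, 3751 and 3987 (log2 fold change 0.31, SE 0.05, edgeR adjusted p = 2.88e-04).

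Among the 9 signalling and transcription targets, 2 were higher, 1 was lower and 6 were not called. The shares were 22.2% higher and 11.1% lower, beside 9.36% and 8.09% of all genes. BHLHE40 had the largest change of the fitted members. It encodes a basic helix-loop-helix repressor of transcription that also acts in the circadian clock. Its normalised counts were 546, 520.1 and 521 in Control and 2527, 2373 and 2415 in the libraries labelled si-CITED2, with no library near the other group, a 4.61-fold rise (log2 fold change 2.20, SE 0.06, edgeR adjusted p = 1.20e-13). DDIT4, an inhibitor of mTORC1 induced by stress and hypoxia, was higher by a modest amount, with 1158, 1233 and 1107 in Control and 1518, 1341 and 1428 in the libraries labelled si-CITED2 (log2 fold change 0.29, SE 0.06, edgeR adjusted p = 0.0043). STC2, a secreted glycoprotein, moved the other way and was 1.59-fold lower, with 2010.4, 2072 and 2003 in Control and 1172, 1349 and 1314 in the libraries labelled si-CITED2 (log2 fold change -0.66, SE 0.06, edgeR adjusted p = 5.79e-07). The 3 STC2 values labelled si-CITED2 were all below the Control range.

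The other members with signalling or transcription roles gave smaller or less certain differences. NDRG1, a stress-responsive gene often used to report hypoxia, was just short of the threshold, with 1496, 1464 and 1557 against 1614, 1721 and 1719 and no overlap (log2 fold change 0.16, SE 0.06, edgeR adjusted p = 0.0526). It passed without si-CITED2 replicate 1 (edgeR adjusted p = 0.0382) and with at least 10 counts required in every library (0.0476). ADM, the vasodilator peptide adrenomedullin, lay at 157, 132 and 156 against 109, 121 and 129, lower in every library labelled si-CITED2 but not called (log2 fold change -0.30, SE 0.14, edgeR adjusted p = 0.159). ANKRD37, an ankyrin repeat protein, was read at only 14.2, 20.9 and 22.4 against 24.3, 24.8 and 25.2, with a wide error (log2 fold change 0.38, SE 0.30, edgeR adjusted p = 0.454). The histone demethylase KDM3A (0.08, SE 0.06), the MYC antagonist MXI1 (0.07, SE 0.07) and INSIG2, which holds back sterol synthesis (0.01, SE 0.09), overlapped between the groups. The log2 fold change of INSIG2 changed sign when single libraries were left out.

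**Figure D2:**
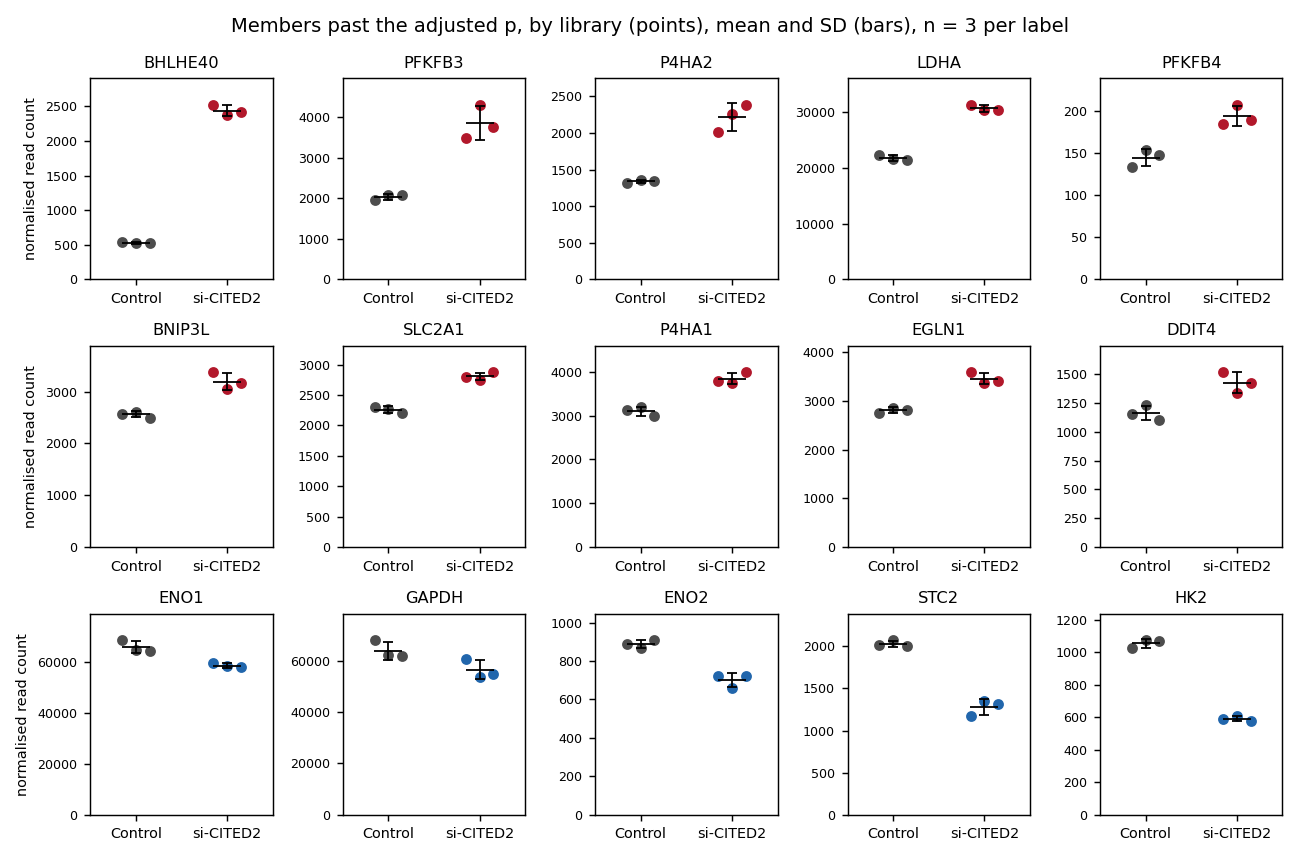
Normalised read counts (vertical axes, each from 0) of the 15 members past the adjusted p in the 3 Control libraries (grey) and the 3 libraries labelled si-CITED2 (red where higher, blue where lower), with the mean and SD in black. The groups do not overlap in any panel, and the gap is widest for BHLHE40 and narrow for GAPDH, where the lowest Control value is 61766 and the highest value of the other group is 60771.

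Glucose enters the cell through the transporters SLC2A1 (GLUT1) and SLC2A3 (GLUT3). SLC2A1 was higher, with 2311, 2273 and 2203 in Control and 2796, 2755 and 2873 in the libraries labelled si-CITED2, 1.24-fold (log2 fold change 0.31, SE 0.05, edgeR adjusted p = 2.79e-04). SLC2A3 was close to the bottom of the range, with 26.7, 37.03 and 40.01 against 21.9, 34.4 and 32.9, and overlapped (log2 fold change -0.20, SE 0.27, edgeR adjusted p = 0.7). Per kilobase of exon, the Control level was 24.1 ± 0.585 CPM for SLC2A1 and 0.375 ± 0.0760 CPM for SLC2A3.

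Of the 11 members in upper glycolysis, 2 were higher, both of them regulatory enzymes, 1 was lower and 8 were not called. That is 18.2% higher and 9.09% lower, where 9.36% of all genes were higher and 8.09% lower. HK2, the inducible hexokinase that phosphorylates glucose at the mitochondrial surface, was 1.78-fold lower, with 1024, 1074 and 1071 in Control and 589, 607 and 578 in the libraries labelled si-CITED2 (log2 fold change -0.84, SE 0.06, edgeR adjusted p = 6.39e-08). HK1, the constitutive isoform, was read at 4950.5, 4426 and 4755 in Control and 5213, 4954 and 5098 in the libraries labelled si-CITED2, without overlap but not called (log2 fold change 0.11, SE 0.05, edgeR adjusted p = 0.166). HK1 was the more abundant hexokinase on the per-length scale, with 42.8 ± 2.41 CPM per kb in Control and 46.3 ± 1.18 CPM per kb in the libraries labelled si-CITED2, beside 7.55 ± 0.200 CPM per kb in Control and 4.23 ± 0.102 CPM per kb in the libraries labelled si-CITED2 for HK2. The bifunctional enzymes PFKFB3 and PFKFB4 set the level of the sugar bisphosphate that activates phosphofructokinase. PFKFB3 rose 1.89-fold, with 1953, 2079 and 2086 in Control and 3489, 4318 and 3769 in the libraries labelled si-CITED2 (log2 fold change 0.92, SE 0.07, edgeR adjusted p = 4.69e-08). PFKFB4 was higher at a lower level, with 133, 153 and 147 against 185, 207 and 189.5 (log2 fold change 0.43, SE 0.12, edgeR adjusted p = 0.0248). The PFKFB4 call was lost without Control replicate 1 (edgeR adjusted p = 0.0748), Control replicate 3 (0.0536) or si-CITED2 replicate 2 (0.106).

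The remaining enzymes of the upper pathway were not called. Of the phosphofructokinase isoforms, PFKL missed the threshold by a small margin, with 2536, 2527 and 2549 against 2250.1, 2233 and 2377 and no overlap (log2 fold change -0.15, SE 0.05, edgeR adjusted p = 0.0507), and it passed without TMM (edgeR adjusted p = 0.0304) and under the filter of 10 counts (0.0482). PFKM, at 1907, 1761 and 1964 against 1744, 1654 and 1719, was lower in mean (log2 fold change -0.14, SE 0.06, edgeR adjusted p = 0.116), and PFKP, the most abundant isoform, at 8894, 8759 and 8565 against 10111, 9237 and 9180.0, was higher in mean (log2 fold change 0.12, SE 0.05, edgeR adjusted p = 0.112). The groups of both did not overlap. The isomerase GPI had a log2 fold change of -0.09, SE 0.05, the aldolase ALDOA of -0.03, SE 0.05 and the triose phosphate isomerase TPI1 of 0.06, SE 0.06. ALDOC, the aldolase isoform of brain, was at 19.6, 20.1 and 21.2 against 15.8, 22.9 and 7.67 normalised counts, spread most in the libraries labelled si-CITED2 (log2 fold change -0.36, SE 0.37, edgeR adjusted p = 0.573).

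In the lower part of the pathway, where triose phosphates become pyruvate, 3 of 6 genes were lower, where 8.09% of all genes were lower, and 2 of these calls, ENO1 and GAPDH, were lost in some fits that left out 1 library. None was higher (by DESeq2 none was higher either, and PGK1 alone passed an unadjusted edgeR threshold of 0.05 in that direction). ENO2, the enolase isoform of neurons and neuroendocrine cells, was 1.27-fold lower, with 888, 870.3 and 908 in Control and 720.1, 657 and 723 in the libraries labelled si-CITED2 (log2 fold change -0.34, SE 0.07, edgeR adjusted p = 0.00131). The abundant enolase ENO1 was 1.12-fold lower, with 68427, 64693 and 64164 in Control and 59489.6, 58183 and 57813 in the libraries labelled si-CITED2 (log2 fold change -0.17, SE 0.04, edgeR adjusted p = 0.0141). GAPDH, the oxidising enzyme of the pathway and the reference transcript of the RT-qPCR in the study, was 1.13-fold lower, with 67928, 62002 and 61766 in Control and 60771, 53723 and 54823 in the libraries labelled si-CITED2 (log2 fold change -0.18, SE 0.05, edgeR adjusted p = 0.0324). The ENO1 call was lost without si-CITED2 replicate 2 (edgeR adjusted p = 0.0797) or 3 (0.0852). The GAPDH call was lost without Control replicate 1 (0.0745) or 2 (0.06001) and without si-CITED2 replicate 2 (0.186) or 3 (0.156). Without si-CITED2 replicate 2 or 3, the members called lower thus numbered 3 in place of 5, and the glycolysis genes called lower 2 in place of 4.

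PGK1, the first enzyme of the pathway to yield ATP, had 4649, 4493 and 4357 against 4733, 4862 and 4927 normalised counts, all higher under the si-CITED2 label but not called (log2 fold change 0.11, SE 0.05, edgeR adjusted p = 0.154). The mutase PGAM1 (0.05, SE 0.05) and the pyruvate kinase PKM (-0.01, SE 0.05) overlapped between the groups, and the sign of PKM turned when single libraries were left out. GENCODE 29 lists 62 pseudogenes named after GAPDH, 39 after BNIP3, 13 after PGAM1, 6 after LDHA and 4 after ENO1. It also lists 5 after PKM, 4 after TPI1, 3 each after LDHB and SLC2A3 and 2 after ALDOA. EGLN1, EGLN3, HK2 and PGK1 have 1 each. How the counting treated reads that such copies share was not stated, so the values of these genes are uncertain to that extent. PGAM4, a near-identical copy of PGAM1, carried 1033, 837 and 795 against 783, 874 and 974 normalised counts, and how many of these reads the genes share was not tested (log2 fold change -0.02, SE 0.09, edgeR adjusted p = 0.918).

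Pyruvate is turned to lactate by lactate dehydrogenase, of which LDHA favours that direction and LDHB the reverse, or it enters mitochondria unless PDK1 blocks pyruvate dehydrogenase. LDHA rose 1.41-fold, with 22349, 21541 and 21503 in Control and 31380.4, 30410.1 and 30348 in the libraries labelled si-CITED2, and its lowest value under the si-CITED2 label was far above the highest in Control (log2 fold change 0.49, SE 0.04, edgeR adjusted p = 4.92e-07). LDHB was not called, with 11505, 10989 and 10259 in Control and 10303, 10678 and 10549.6 in the libraries labelled si-CITED2 (log2 fold change -0.06, SE 0.05, edgeR adjusted p = 0.527). PDK1 had 325, 389 and 320.0 against 364, 409 and 393 normalised counts, overlapping (log2 fold change 0.17, SE 0.10, edgeR adjusted p = 0.277).

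**Figure D3:**
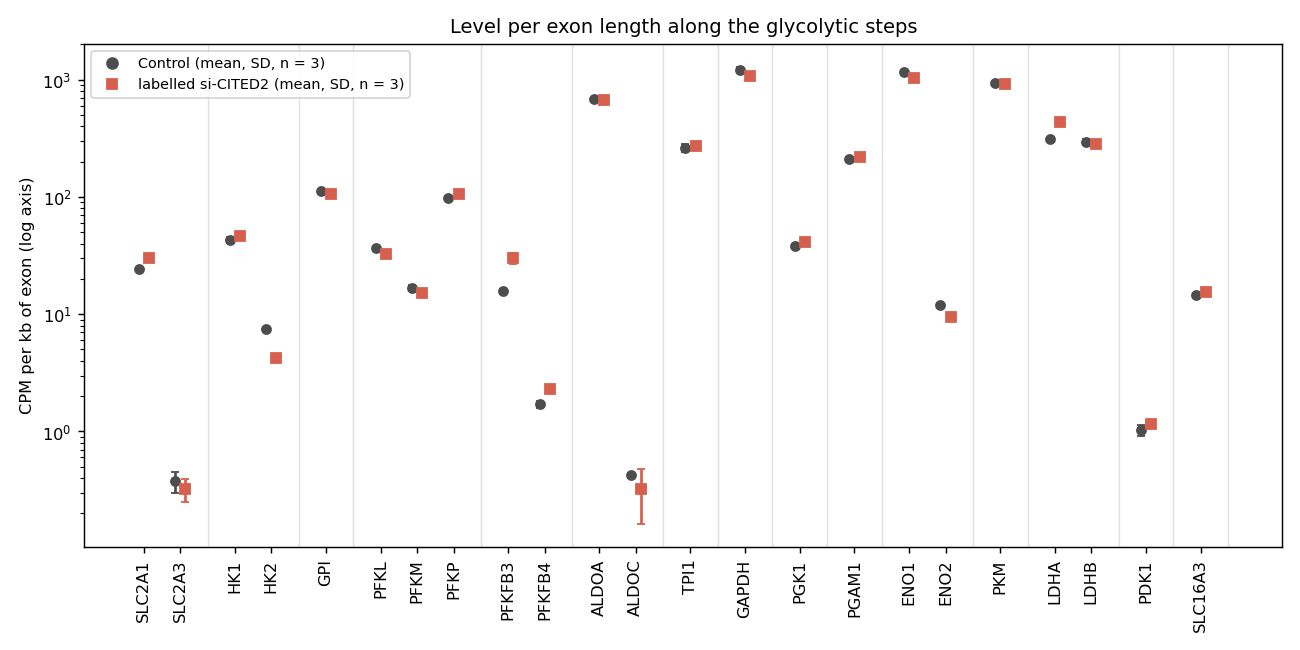
Level of the glycolysis members and of the lactate exporter SLC16A3 in CPM per kilobase of exon (vertical, log axis), in the order of the steps, for Control (circles) and the libraries labelled si-CITED2 (squares), as mean and SD of 3 libraries. Levels run from under 1 for ALDOC and SLC2A3 to 1220 for GAPDH in Control, and the visible shifts between the labels are those of HK2, PFKFB3, PFKFB4 and LDHA.

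On the per-length scale the order of the levels in Control began with GAPDH (1219.8 ± 66.7 CPM per kb), ENO1 (1161 ± 41.04), PKM (934 ± 27.2) and ALDOA (679 ± 18.4), followed by LDHA (312 ± 6.83), LDHB (292 ± 16.8) and TPI1 (260.3 ± 19.7). The Control means of GAPDH and ENO1 differed by less than the SD of GAPDH but by more than that of ENO1. In the libraries labelled si-CITED2, LDHA stood at 439 ± 8.28 CPM per kb and LDHB at 281 ± 5.09, farther apart than in Control. Exon lengths were the merged exons of the transcripts of a gene that GENCODE 29 tags as basic, 14253 bases for PDK1. A level per length thus depends on the isoforms counted. The members together held between 1.49% and 1.58% of all counts in a library. The hypoxia targets held between 0.1001% and 0.103% in Control and between 0.118% and 0.1201% in the libraries labelled si-CITED2. This sum includes BHLHE40, at 529 ± 14.5 normalised counts in Control and 2438 ± 79.4 in the libraries labelled si-CITED2. It does not describe each target, since of 17 fitted, 6 were higher, 1 was lower and 10 were not called.

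Related members were then compared inside each library, where a ratio does not depend on the scaling between libraries. Of 12 pairs, 11 gave a ratio, CA9 being under the floor, and 7 did not overlap between the labels. Each of these 7 reached an exact two-sided permutation p = 0.1, the smallest that 3 against 3 allows, so none could pass 0.05. The log2 ratio HK1/HK2 was 2.16 ± 0.115 in Control and 3.10 ± 0.0654 in the libraries labelled si-CITED2 (SD, n = 3), a difference of 0.95. LDHA/LDHB was 0.999 ± 0.0599 in Control and 1.55 ± 0.0522 in the libraries labelled si-CITED2, a difference of 0.55. Corrected for exon length, LDHA was 1.07 times LDHB in Control and 1.56 times in the other group, and HK1 was 5.67 and 10.9 times HK2. The log2 difference was 0.49 for PFKFB3/PFKFB4, 0.26 for PFKP/PFKM and 0.18 for ENO1/ENO2. It was -0.44 for BNIP3/BNIP3L and -0.41 for P4HA1/P4HA2. The remaining ratios overlapped, with differences of 0.54 for SLC2A1/SLC2A3, 0.50 for ALDOA/ALDOC, 0.16 for EGLN1/EGLN3 and -0.01 for PFKL/PFKM, and the ratios to SLC2A3 and ALDOC rest on low counts.

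**Figure D4:**
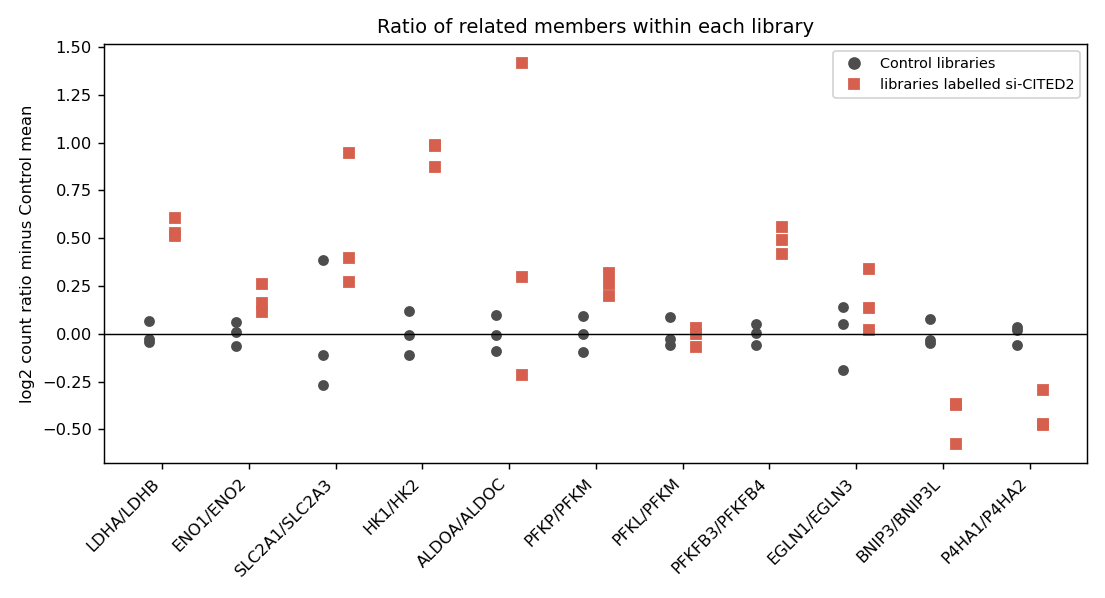
Log2 ratio of normalised counts of related members within each library, minus the mean of the Control libraries (vertical axis, log2 units), for 11 pairs, with 1 point per library (circles Control, squares labelled si-CITED2). HK1/HK2, LDHA/LDHB, PFKFB3/PFKFB4 and, by less, PFKP/PFKM and ENO1/ENO2 lie above every Control point, and BNIP3/BNIP3L and P4HA1/P4HA2 lie below. ALDOA/ALDOC spreads widely, with ALDOC at 7.67 to 22.9 normalised counts.

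The genes that make and control HIF were described next. Of 12, 11 entered the fit, 3 were higher (27.3%, where 9.36% of all genes were higher and 17.4% were called in either direction) and none was lower (DESeq2 also called none lower, edgeR called 1 lower without Control replicate 1, and VHL alone was lower at an unadjusted edgeR p under 0.05). EPAS1, the HIF-2 alpha subunit, was higher with 1491, 1489 and 1435 against 1897, 1992 and 1962 (log2 fold change 0.41, SE 0.05, edgeR adjusted p = 3.75e-05). ARNT was higher with 3205, 3067 and 3046 against 3644, 3706 and 3633 (log2 fold change 0.24, SE 0.05, edgeR adjusted p = 0.00202). CITED4, a relative of CITED2 that also binds EP300, was low in level and higher with 32.00, 41.1 and 32.9 against 91.1, 70.7 and 64.6 (log2 fold change 1.08, SE 0.22, edgeR adjusted p = 0.00192). HIF1A, at 11197, 10858 and 11623 against 12152, 11993 and 11859.9, did not overlap but was not called (log2 fold change 0.10, SE 0.05, edgeR adjusted p = 0.177). HIF3A (0.45, SE 0.23), ARNT2 (-0.12, SE 0.10), EGLN2 (-0.03, SE 0.07), VHL (-0.14, SE 0.06), the asparaginyl hydroxylase HIF1AN (0.02, SE 0.06), EP300 (-0.07, SE 0.06) and CREBBP (-0.04, SE 0.05) were not called. CITED1 had at most 7 counts in a library and was not fitted.

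Further HIF targets outside the 40 gave 10 higher and 3 lower among 28 of 30 genes fitted (46.4%, beside 17.4% of all genes), with a median log2 fold change of 0.12. Like the other lists, this one was chosen with earlier results of these data known, so its share is not independent of them. Among the largest rises were those of the lipase inhibitor ANGPTL4 (log2 fold change 3.72), TMEM45A (8.89, 13.7 and 11.8 against 30.4, 27.7 and 32.9 normalised counts, log2 fold change 1.39) and the ephrin ligand EFNA1 (336, 361 and 358 against 629, 643 and 641, log2 fold change 0.86). The genes called lower were ZNF395 (-0.44), PPP1R3C, which directs glycogen storage (-0.40), and the transferrin receptor TFRC (-0.34).

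Other genes of glucose metabolism gave 3 higher and 3 lower among 33 of 39 fitted, 18.2% in all, close to the 17.4% of all genes. BPGM, the bisphosphoglycerate mutase that branches off lower glycolysis, was higher with 379, 304 and 352 against 760.1, 827 and 851 (log2 fold change 1.24, SE 0.09, edgeR adjusted p = 2.73e-08). The muscle enolase ENO3 was higher with 107, 118 and 112 against 192, 181 and 195 (log2 fold change 0.75, SE 0.13, edgeR adjusted p = 4.45e-04), so the enolases ENO1 and ENO2 were lower while ENO3, at a far lower count, was higher. The lactate carrier SLC16A1 was higher (log2 fold change 0.20, SE 0.05, edgeR adjusted p = 0.0151). The gluconeogenic phosphatase FBP1 was lower with 46.2, 45.9 and 35.3 against 23.1, 26.8 and 20.8 (log2 fold change -0.85, SE 0.25, edgeR adjusted p = 0.0274), as were PDK4, a relative of PDK1 (log2 fold change -0.46, SE 0.12, edgeR adjusted p = 0.0164), and PGD of the pentose phosphate pathway (log2 fold change -0.24, SE 0.05, edgeR adjusted p = 0.00132).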

How the data were processed

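The authors deposited unnormalised read counts by gene symbol, 1 table for each of the 6 PC3 samples. The processing notes name TopHat, edgeR and the build hg19 without roles or versions. The counting program, the annotation and the handling of shared reads were not given in the sources used here. Samples were grouped by their labels, and the study describes its experiments as independent. Where a symbol had several rows (286 symbols), the one with the highest total was used, and the others held 0.082% of all counts. Totals were 19508925 to 28936374 counts, and the floor of 3 counts covers counting error only.

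Counts were fitted in R 4.3.3 with edgeR 4.0.16 (filterByExpr, TMM, glmQLFit, glmQLFTest, no block). P-values were adjusted by Benjamini-Hochberg over 16314 genes, and the standard error was derived from the F statistic. The common biological coefficient of variation was 0.0614. Ratios within libraries were compared by exact two-sided permutation. The fit was tested on simulated data. Exon lengths came from GENCODE 29 and promoter windows from RefSeq (GRCh38.p14, first listed start). No coordinate was taken from the counts' own build. Named genes were CITED2, all members, all measured HIF machinery genes, and in the other 2 lists the 4 largest rises and falls past the adjusted p, of which some results are not reported here. KRT8, KRT18 and EPCAM were named as called markers, KLK2 as a marker at 0 and PGAM4 as a near-identical copy, after their values were seen. The members and lists were chosen with earlier results of these data known. The alternatives tried were a block on the replicate number, each library left out, DESeq2 1.42.0, library size without TMM, 2 other filters on low counts, and summed rows of repeated symbols.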

Additional observations from a re-analysis of the deposited data

How the results depend on the processing

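Across 12 alternatives, 12 of the 15 called members kept their call in every one, and no called member changed direction. The 3 that lost it in some leave-one-out fits were PFKFB4, GAPDH and ENO1, and 20 members that were not called stayed so with the same sign. When each library was left out in turn, the CITED2 log2 fold change ranged from 0.17 to 0.29, and without TMM it was 0.22 (edgeR adjusted p = 0.0518). In the same leave-one-out fits the members called lower numbered 3 to 5, glycolysis genes called lower 2 to 4, HIF machinery genes called lower 0 to 1, other glucose metabolism genes called lower 1 to 3 (1 without si-CITED2 replicate 2), and the members' median log2 fold change ranged from 0.037 to 0.0997. Without TMM the other glucose metabolism genes called lower were 5 in place of 3, and the members' median was 0.0498. The median of all genes was then -0.02. The INSIG2 log2 fold change ranged from -0.0501 to 0.0746 over the leave-one-out fits (below 0 in 4) and was -0.0107 without TMM, and that of PKM ranged from -0.0765 to 0.0166 (above 0 in 3). Neither was called. The cause was not tested. For NDRG1 and PFKL, calls gained are given above. Depth limits CA9, SLC2A3, ALDOC and ANKRD37.

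Same-numbered Control and si-CITED2 samples did not deviate together (r = -0.04, 0.03 and -0.01, other pairings -0.04 to 0.05), so no pairing by number was seen. These values cannot tell whether same-numbered cultures were prepared together. With the replicate number as a block, 1405 genes were called higher and 1154 lower, in place of 1527 and 1319, and 10 members were higher and 5 lower as before. The CITED2 log2 fold change was then 0.24.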
